A study of Mus musculus with 3 samples.

Results

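*Coch*, *Otos*, *Otor*, *Vmo1*, *Ucma*, *Rarres1* and *Emilin2* were grouped here as genes for secreted proteins of the connective tissue and the lining cells of the cochlea, a grouping that was not tested. They were picked by symbol, and all 7 were found among the 32285 genes listed for each library. The samples were dissociated cochleae of C57/B6 mice of both sexes, for which no treatment and no engineered allele is given: 1 library from postnatal day 14 (P14) and 2 libraries from postnatal day 28 (P28, replicates 1 and 2). Each library pooled 14 cochleae from 7 mice, so the spread between the P28 libraries is a spread between pools, and animals cannot be told apart. The bony wall was taken off in dissection, and epithelium from the lowest part of the basal turn was largely lost with it. RNA was counted as unique molecular identifiers (UMIs) per cell barcode by the 10x Chromium 3′ method, in which 1 UMI stands for 1 captured molecule. Barcodes with 200 to 6000 genes and at most 15% mitochondrial UMIs were kept, which left 1662 of 2513 barcodes at P14 and 5651 of 11948 and 7065 of 18196 at P28.

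The extracellular matrix of the cochlea carries the mechanical load of the basilar membrane and fills the spiral ligament and limbus, and it is made by several kinds of fibrocyte and lining cell. Cochlin, the product of *Coch*, is the most abundant noncollagen protein of the inner ear matrix, and dominant mutations in it cause progressive deafness. EMILIN2 is a matrix glycoprotein of the elastin microfibril interface family. Otospiralin (*Otos*) and otoraplin (*Otor*) are small secreted proteins known from the inner ear, and otoraplin belongs to the melanoma inhibitory activity family. VMO1 is the mammalian relative of a protein of the outer egg membrane of birds. UCMA, also called Gla-rich protein, is a vitamin K-dependent protein of cartilage. RARRES1 is a retinoic acid responsive protein related to the carboxypeptidase inhibitor latexin.

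Cells were clustered separately at each age without these 7 genes, and clusters were named from marker lists with the ending "-like", which gave 18 clusters at P14 (16 named) and 31 at P28 (28 named). The classes used most below were tympanic border cell-like cells (TBC-like, the cells under the basilar membrane), Reissner's membrane-like cells (RM-like), fibrocyte-like, fibroblast-like and bone-like cells, and sulcus and Hensen's cell-like cells (ISC/HeC/OSC-like). Clusters with no name are called here by their leading genes: the Acan cluster, the Abcc9 cluster and the Tdrd12+Clic6 cluster. These names were rebuilt here, and differences from the study's cell types may come from that. By these names P14 had no fibrocyte-like, Acan, Abcc9 or spiral ganglion neuron-like (SGN-like) class, and P28 had no pericyte-like class. A missing name does not show that the cells were missing. The P14 pericyte-like cluster and the P28 Abcc9 cluster both had *Phex*, *Abcc9*, *Cemip* and *Cald1* among their 10 leading genes. For each library, UMIs were added up over a class, and a level is a gene's share of all UMIs in that sum, given as CPM (10000 CPM is 1% of the UMIs). In such sums a smaller share of expressing cells and less RNA per cell cannot be told apart. The kept cells held 7432047 UMIs at P14 and 24596587 and 23300859 at P28, with medians of 2477, 2421 and 2037 UMIs per cell, and 4, 7 and 10 barcode sequences were shared by pairs of libraries.

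In the GENCODE M21 annotation of the mouse build GRCm38, the same build as the mm10 of the submitters' processing notes, the 7 genes lie apart from each other. *Coch* takes up chr12:51593341-51605771 on the plus strand with 12 exons, *Otos* chr1:92644218-92648841 on the minus strand with 5 exons, and *Otor* chr2:143078473-143081713 on the plus strand with 4 exons. *Vmo1* lies at chr11:70513516-70514616 (minus strand, 3 exons) and *Ucma* at chr2:4976122-4985748 (plus strand, 5 exons). *Rarres1* lies at chr3:67478972-67515523 (minus strand, 6 exons). *Emilin2*, at chr17:71252172-71311978 on the minus strand with 8 exons, overlaps *Gm26561* on the other strand.

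The 4 genes that were high together in TBC-like cells, *Coch*, *Otor*, *Rarres1* and *Emilin2*, are shown with the 150 bases before their RefSeq start, and *Vmo1*, which was high in another class, is shown beside them. The RefSeq starts of *Otor* (chr2:143078393) and *Emilin2* (chr17:71311556) differ from the GENCODE starts above. The *Emilin2* window lies inside the GENCODE span of the gene. The sequences are from RefSeq on GRCm38.p6 and read 5′ to 3′ on the strand of the gene, and capitals mark TATAAA and GGGCGG on either strand (the latter read CCGCCC on the other strand). The windows are chr12:51593191-51593340 (*Coch*, plus), chr2:143078243-143078392 (*Otor*, plus), chr3:67515524-67515673 (*Rarres1*, minus), chr17:71311557-71311706 (*Emilin2*, minus, the first of 2 listed starts) and chr11:70514617-70514766 (*Vmo1*, minus).
Coch: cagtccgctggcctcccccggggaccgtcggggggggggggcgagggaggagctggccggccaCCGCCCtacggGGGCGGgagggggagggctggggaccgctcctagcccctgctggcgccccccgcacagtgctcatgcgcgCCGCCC
Otor: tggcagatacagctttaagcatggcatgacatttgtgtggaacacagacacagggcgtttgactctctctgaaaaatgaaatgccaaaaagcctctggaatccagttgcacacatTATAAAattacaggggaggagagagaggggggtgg
Rarres1: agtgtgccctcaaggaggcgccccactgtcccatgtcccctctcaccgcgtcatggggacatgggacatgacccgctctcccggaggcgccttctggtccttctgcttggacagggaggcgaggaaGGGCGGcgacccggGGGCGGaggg
Emilin2: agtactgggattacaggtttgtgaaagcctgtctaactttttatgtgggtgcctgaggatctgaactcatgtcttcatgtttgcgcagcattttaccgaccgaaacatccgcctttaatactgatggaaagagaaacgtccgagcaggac
Vmo1: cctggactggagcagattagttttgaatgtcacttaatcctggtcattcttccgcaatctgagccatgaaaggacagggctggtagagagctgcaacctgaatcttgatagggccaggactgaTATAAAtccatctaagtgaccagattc
TATAAA stood in the windows of *Otor* and *Vmo1* and in 7.57% of all 32851 listed promoters. GGGCGG stood in those of *Coch* and *Rarres1* and in 28.6% of all promoters, and CCAAT, also searched on both strands, stood in that of *Ucma* alone among the 7 and in 24.5% of all. None of these letters occurred in the windows of *Otos* and *Emilin2*. The RefSeq windows of the 4 genes high in TBC-like cells thus shared none of the 3 motifs. Their GC content ran from 45.3% (*Emilin2*) and 46.0% (*Otor*) to 69.3% (*Rarres1*) and 81.3% (*Coch*), beside a median of 54.0% over all promoters. A match of letters is a description of the sequence.

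The 7 genes differed in how many classes they were high in. The sums of each class were compared with those of all other cells of the same libraries in 19 classes with edgeR (quasi-likelihood), and p-values were adjusted after Benjamini and Hochberg over all genes tested, with a threshold of 0.05. Of the 133 pairs of gene and class, 15 were higher in the class, 97 were lower and 21 did not pass. Of these, 84 pairs were in classes with all 3 libraries, with 7 higher and 61 lower. The same pairs gave 4 higher and 6 lower without P28 replicate 1, 7 and 27 without P28 replicate 2, and 6 and 40 without the library term. For these changed fits the shares of all genes called are not given, so the changes are not read as particular to the 7 genes. With all libraries kept, the share of all genes tested that were called higher ran over the classes from 0.822% (red blood cell-like) to 34.9% (SGN-like), and the share called lower from 1.23% to 41.6%. *Coch* was higher in 5 classes, *Ucma* in 3, *Otos* and *Otor* in 2 each, and *Vmo1*, *Rarres1* and *Emilin2* in 1 each. *Vmo1* was lower in 17 of the other classes, *Otor* and *Emilin2* in 16, *Rarres1* in 15, *Ucma* in 14 and *Coch* in 12, but *Otos* in 7 only. A class that holds most UMIs of a gene lowers the other classes in such comparisons by construction. RM-like cells held 98.2% of the *Vmo1* UMIs at P14 and 92.1% and 86.4% at P28. For *Ucma* the Tdrd12+Clic6 cluster held 88.0%, 71.3% and 47.7%. No comparison without RM-like cells among the others was made. Against all other cells, no member was higher in hair cell, supporting cell or neuron classes, but with TBC-like cells left out of the others *Rarres1* was higher in IHC-like (inner hair cell-like) cells and *Otor* in inner phalangeal and border cell-like cells (values below). All 7 were lower in outer hair cell-like cells (OHC-like; 23.3% of all genes called higher, 30% lower), SGN-like cells, inner phalangeal and border cell-like cells (IPhC/IB-like; 16.7% and 24.3%) and Deiters and pillar cell-like cells (DC/PC-like; 7.3% and 12%), and 6 of 7 in IHC-like cells (13.8% and 20.6%). With TBC-like cells left out, the lower calls of *Otor*, *Rarres1* and *Emilin2* in OHC-like cells did not pass (adjusted p = 0.528, 0.859 and 0.343 by edgeR). Nor did those of *Rarres1* and *Emilin2* in IPhC/IB-like cells (0.121 and 0.482) and of *Rarres1* in DC/PC-like cells (0.0596). In SC/SGC-like (Schwann and satellite glial cell-like) cells 6 were lower (2.65% of all genes called higher, 3.6% lower), in epithelial-like cells 6 (9.5% and 13.9%), in macrophage-like cells 6 (14.5% and 16.3%), in fibroblast-like cells 5 (14.9% and 21%) and in granulocyte-like cells 4 (12.1% and 12.8%), with none higher. Without TBC-like cells among the others, *Otor*, *Rarres1* and *Emilin2* did not pass in SC/SGC-like cells (adjusted p = 0.504, 0.951 and 0.989 by edgeR). The same held in epithelial-like (0.192, 0.18 and 0.275) and macrophage-like cells (0.623, 0.14 and 0.934). In fibroblast-like cells *Otor* and *Rarres1* did not pass (0.185 and 0.0844), and *Emilin2* was higher (values below). In granulocyte-like cells *Otor* and *Emilin2* did not pass (0.169 and 0.333).

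**Figure D1:**
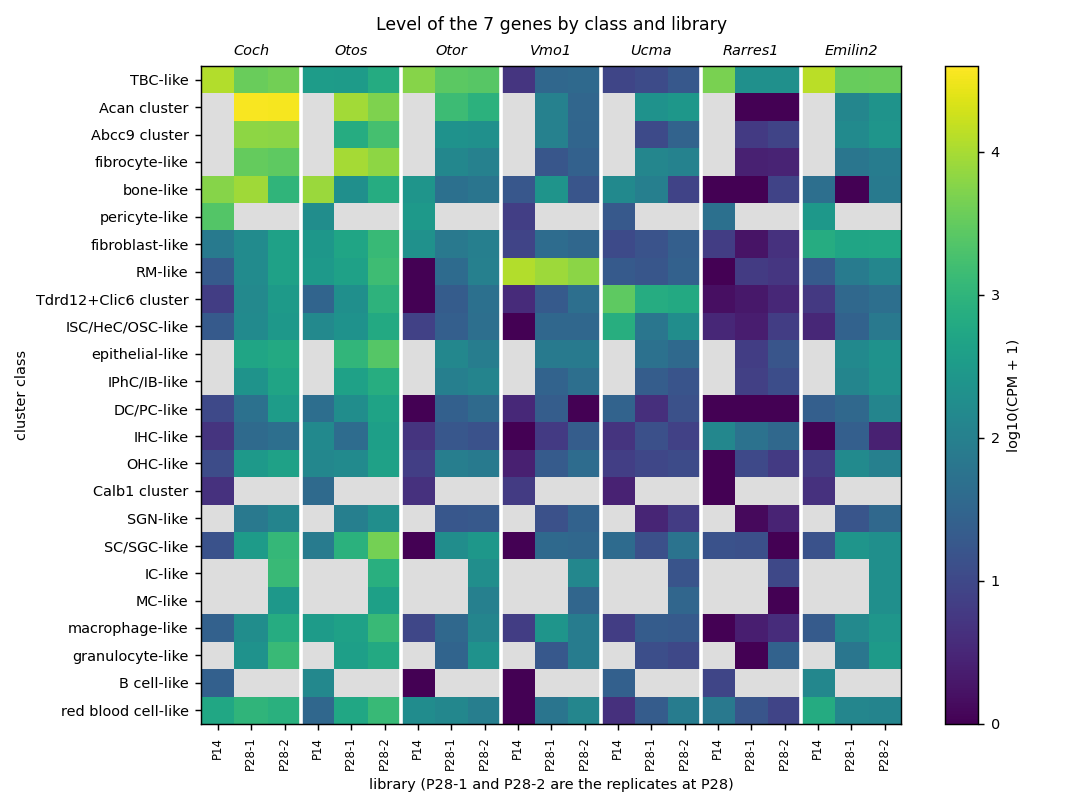
Level of each gene, as log10(CPM + 1), in every class (vertical) of the P14 library and the 2 P28 libraries (horizontal, 3 columns per gene); grey fields are classes with fewer than 10 cells in a library. *Vmo1* has 1 bright band, in RM-like cells, *Rarres1* has 1 in TBC-like cells, and *Otos* and *Coch* have values above 100 CPM in most classes at P28.

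TBC-like cells (67 at P14, 938 and 1232 at P28) had high levels of *Coch*, *Otor*, *Rarres1* and *Emilin2*. Their named markers include the Wnt-regulated genes *Axin2* and *Notum* and the fibronectin gene *Fn1*. These 4 genes were higher there than in all other cells and the other 3 were lower, where 24.6% of all genes tested were called higher and 30.6% lower. The level of *Emilin2* in these cells was 13570 CPM in the P14 library and 3364 and 3546 CPM in the P28 libraries, against 92.2, 129 and 179 CPM in the other cells of the same libraries. The groups did not overlap, and the log2 fold change was 5.49 (SE 0.49, higher in 3 of 3 libraries, adjusted p = 4.6e-06 by edgeR). *Emilin2* had a UMI in 98.5% of TBC-like cells at P14 and in 94.99% and 95.2% at P28, which was the widest detection of the 7 genes in this class. In macrophage-like cells of like depth (medians of 2246 and 2023 UMIs, against 2017 and 2164 in TBC-like cells) it was found in 13.9% and 24.0% at P28.

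*Otor* stood at 5720 CPM in TBC-like cells at P14 and at 2713 and 2521 CPM at P28. The next class at P28 was the Acan cluster with 1420 and 920.5 CPM, and the ranges did not overlap. TBC-like cells held 82.7% of all *Otor* UMIs at P14 and 88.3% and 87.2% at P28, and the log2 fold change over all other cells was 5.80 (SE 0.42, adjusted p = 1.05e-06 by edgeR, higher in 3 of 3). It was detected in 92.5%, 88.9% and 88.6% of TBC-like cells, against 2.63%, 5.91% and 15.2% of macrophage-like cells.

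*Rarres1* was even more restricted by its share of UMIs. TBC-like cells held 94.2% of its UMIs at P14 and 88.8% and 89.98% at P28, at levels of 4807 CPM at P14 and 206 CPM in both P28 libraries. It was higher there than in all other cells (log2 fold change 6.46, SE 0.66, adjusted p = 1.18e-05 by edgeR, higher in 3 of 3). It was found in 55.2% of TBC-like cells at P14 but in only 27.1% and 30.1% at P28, and in 0% to 0.707% of macrophage-like cells. *Rarres1* thus joined the other 3 genes in the class but was found in fewer of its cells.

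*Coch* reached 11520 CPM in TBC-like cells of the P14 library and 3549 and 4171 CPM in those of P28. The class held the largest part of the *Coch* UMIs of each library, with 57.6% at P14 and 44.1% and 44.7% at P28, although its level was only the 4th of 19 classes at P28. The log2 fold change over all other cells was 3.01 (SE 0.57, adjusted p = 0.00111 by edgeR, higher in 3 of 3). Without P28 replicate 1 the adjusted p was 0.0621. *Otos*, *Vmo1* and *Ucma* were lower in TBC-like cells, with log2 fold changes of -0.79 (SE 0.25), -3.48 (SE 0.28) and -3.15 (SE 0.47).

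The 4 genes were also found together in single TBC-like cells. Among TBC-like cells with at least 1000 UMIs (55 at P14, 885 and 1086 at P28), 56.4% at P14 and 26.9% and 32.0% at P28 had at least 1 UMI of all 4. *Coch*, *Otor* and *Emilin2* without regard to *Rarres1* were found together in 74.5% at P14 and in 78.2% and 84.5% at P28. The number of these cells with none of the 4 was 0, 5 and 2. At P28 the class was made of a shallow cluster (1447 cells, median 1506 UMIs) and a deep one (723 cells, median 7050 UMIs), which differed little in the level of these genes. *Coch* had 2995 and 3595 CPM in the shallow cluster and 3709 and 4466 CPM in the deep one. *Rarres1* differed most, with 127 and 146 CPM against 229 and 237 CPM, and the part of depth in this was not tested.

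At P28 *Coch* was called higher in the fibrocyte-like class, the Acan cluster and the Abcc9 cluster. *Otos* and *Ucma* were also called higher in the fibrocyte-like class and the Acan cluster, and *Otor*, of these, in the Acan cluster alone. The Acan cluster (168 and 233 cells), led by the cartilage proteoglycan gene *Acan* and by *Ecrg4*, *Trf* and *Col2a1*, carried 5 of the 9 fibrocyte markers but was not named, since the bone marker *Dmp1* and none of the 5 was among its 10 leading genes. Against all kept cells, 1 of 9 fibrocyte, 2 of 6 bone and 2 of 7 pericyte markers were more than 2-fold higher in it. *Coch* stood at 36200 CPM in replicate 1 and 34150 CPM in replicate 2 of this cluster. It was the gene with the second highest level in both libraries, with a UMI in 98.2% and 97.4% of the cells. The mean was 35180 ± 1450 CPM (SD, n = 2), 5.44 times that of the next class. The log2 fold change over all other cells was 4.82 (SE 0.20, adjusted p = 1.23e-08 by edgeR, higher in 2 of 2 libraries).

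In all, 4 of the 7 genes were higher in the Acan cluster and 3 lower, where 7.48% of all genes tested were called higher and 12.5% lower. *Otos* stood there at 9017 and 5070 CPM, and its log2 fold change was 2.83 (SE 0.27, adjusted p = 1.23e-05 by edgeR). 1 cell held 22.3% and 22.6% of these *Otos* UMIs in the libraries, and the gene was found in 42.9% and 60.5% of the cells (medians of 1394 and 1158 UMIs). In macrophage-like cells the shares were 43.5% and 60.4% (medians of 2246 and 2023 UMIs). After each cell was thinned to 1000 UMIs, it was found in 35.7% and 52.0% of the Acan cells (143 and 152 cells were deep enough) and in 25.7% and 41.7% of the macrophage-like cells (206 and 266). The median Acan cell had 0 and 1 UMI of *Otos* at full depth. *Otor* (log2 fold change 1.08, SE 0.18, adjusted p = 0.00109) and *Ucma* (1.69, SE 0.18, adjusted p = 2.51e-05) were the other 2 that were higher. *Rarres1* had no UMI in this cluster in either library.

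The Abcc9 cluster (225 and 263 cells), led by *Fst*, *Abcc9*, *Inmt* and *Cemip*, had *Coch* at 6545 and 6386 CPM. In 480 of its 488 cells, 2 of 9 fibrocyte, 2 of 6 bone and 4 of 7 pericyte markers (*Rgs5*, *Kcnj8*, *Abcc9* and *Pdgfrb*) were more than 2-fold above all kept cells. This was the 9th highest gene of the cluster in both libraries, and it was found in 84.4% and 85.9% of the cells. The log2 fold change was 2.11 (SE 0.17, adjusted p = 7.57e-05 by edgeR, higher in 2 of 2). *Coch* was the 1 gene of the 7 that was higher there, with 5 lower, where 8.22% of all genes were called higher and 12.1% lower. At P14 a pericyte-like cluster of 91 cells, led by *Moxd1*, *Phex* and *Abcc9*, had *Coch* at 2341 CPM and in 70.3% of its cells.

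Fibrocyte-like cells (233 and 362) had *Coch* at 3253 and 2823 CPM and *Otos* at 9380 and 6484 CPM. In this class 3 members were higher and 4 lower, beside 18.7% and 25.5% of all genes tested. On the log2 scale *Otos* was higher by 3.83 (SE 0.34, adjusted p = 9.94e-06 by edgeR, higher in 2 of 2), *Coch* by 1.16 (SE 0.16, adjusted p = 0.000195) and *Ucma* by 0.81 (SE 0.13, adjusted p = 0.00049). When the 7 genes were allowed to shape the clusters, the fibrocyte-like class had cells in 3 libraries, and *Coch* (0.32, adjusted p = 0.844) and *Otos* (2.74, adjusted p = 0.227) no longer passed and *Ucma* turned to -0.65 (adjusted p = 0.858). With up to 30% mitochondrial UMIs *Ucma* did not pass either (0.10, adjusted p = 0.627). The class had the highest mean *Otos* level of the 19 at P28, 7932 ± 2048 CPM (SD, n = 2), but the range of the Acan cluster overlapped it.

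At a finer resolution the fibrocyte-like class split into 2 parts with very different *Otos*. In 207 cells (70 and 137) led by *Gm525*, *Ptgds*, *S100b* and *Cytl1*, *Otos* stood at 88830 and 36880 CPM. In the 385 cells led by *Fxyd2* and *Kcnk2*, a potassium channel gene and fibrocyte marker, it stood at 2110 and 1613 CPM. *Ucma* followed the same split, with 1205 and 707 CPM against 28.0 and 12.4 CPM, and so did *Otor*, with 593 and 394 CPM against 90.4 and 56.0 CPM. *Coch* differed less, with 6531 and 3899 CPM against 2953 and 2655 CPM. The *Gm525* cells had 5 of 9 fibrocyte markers more than 2-fold above all kept cells, and 0 of 6 bone and 0 of 7 pericyte markers. They were shallow, with medians of 1192 and 1231 UMIs against 4890 and 5639. Since the subclusters were made from the same cells, these levels are a description. In the whole fibrocyte-like class the median cell had 2 and 3 UMIs of *Otos* in the P28 libraries. A single cell held 8.10% and 6.69% of the *Otos* UMIs of the class.

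**Figure D2:**
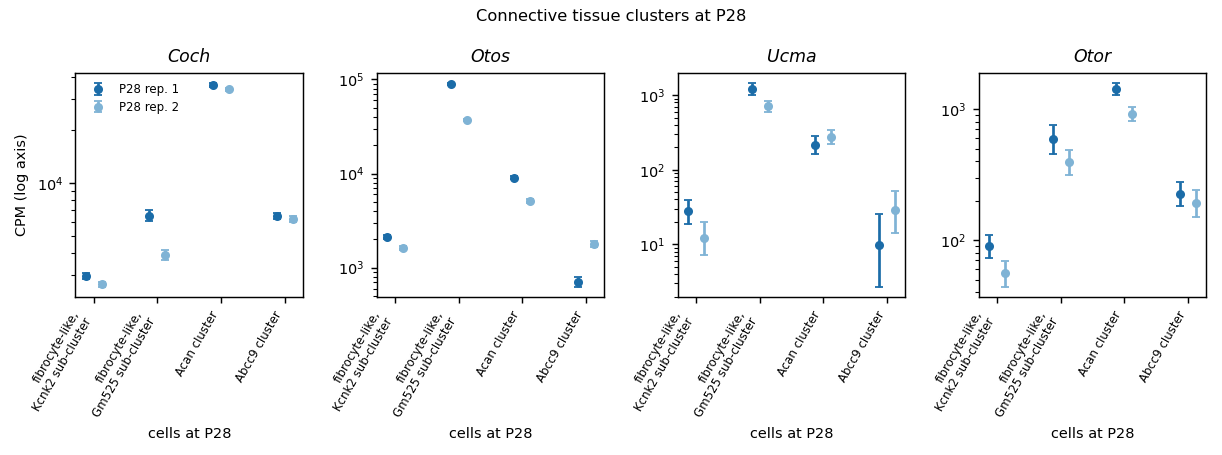
Level (CPM, log axis) of *Coch*, *Otos*, *Ucma* and *Otor* in the 2 parts of the fibrocyte-like class, the Acan cluster and the Abcc9 cluster, drawn from the finer clustering; points are P28 replicates 1 and 2 and bars are 95% Poisson intervals. *Coch* is highest in the Acan cluster, while *Otos* is highest in the *Gm525* part of the fibrocyte-like class, at 88830 and 36880 CPM.

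Outside these groups *Otos* was found nearly everywhere at P28. The median over classes was 424 CPM in replicate 1 and 792 CPM in replicate 2, against 145 CPM at P14, and the lowest class, IHC-like in replicate 1 and SGN-like in replicate 2, had 41.3 and 186 CPM. In SC/SGC-like cells of replicate 2 the level was 4323 CPM, of which 1 cell held 74.8%. The cells with the most *Otos* that together made up 50% of its UMIs were 7 of 1662 at P14, 28 of 5651 in P28 replicate 1 and 128 of 7065 in replicate 2. *Coch* was less concentrated, with 13, 176 and 291 cells. The highest value of any member in 1 cell was 917 UMIs of *Otos*. In macrophage-like cells *Otos* was detected in 32.9% at P14 and in 43.5% and 60.4% at P28. These shares serve here only as a comparison for other classes of like depth. The part of RNA from other cells in them was not tested.

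Bone-like cells (96 at P14, 12 and 45 at P28) gave values of *Coch* and *Otos* that differed widely between libraries. *Coch* stood at 5926 CPM at P14 and at 8682 and 1030 CPM at P28. It was higher than in all other cells in 2 of 3 libraries, at 1.57 on the log2 scale (SE 0.47, adjusted p = 0.0174 by edgeR), and it was the 1 member called higher, with 5 lower, beside 1.98% and 4.05% of all genes. In P28 replicate 1, 54.7% of this value came from 1 cell, and the call was lost without that library (adjusted p = 0.675), without P14 (adjusted p = 0.271), without the term for the library (adjusted p = 0.258) under DESeq2 (adjusted p = 0.362) and when cells were clustered again within other limits on genes (adjusted p = 0.682) or mitochondrial UMIs (adjusted p = 0.473). *Otos* stood at 8223 CPM at P14, 68.9% of the library's *Otos* UMIs, but at 192 and 699 CPM at P28, and the log2 fold change over all 3 libraries did not pass (0.21, adjusted p = 0.951) and was -1.08 without P14 and 3.06 without P28 replicate 2 (adjusted p = 0.00703).

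In the P14 bone-like class, most *Otos* UMIs lay in cells that did not carry bone markers. A single cell held 17.2% of the *Otos* UMIs of the class. At the finer resolution, 58 of its 96 cells had 6 of 6 bone markers more than 2-fold above all kept cells, with *Otos* at 1159 CPM and *Coch* at 7059 CPM. These 58 cells also had 7 of 9 fibrocyte markers above that level, among them *Pou3f4*, *Kcnk2* and *Tbx18*. The other 38 cells had 1 of 9 fibrocyte markers, 0 of 6 bone markers and 5 of 7 pericyte markers. They fell into a finer cluster of 85 cells led by the myeloid genes *S100a8*, *Cd74* and *Lyz2*. Their *Otos* level was 30930 CPM and their *Coch* level 2285 CPM, with a median of 785 UMIs per cell and *Otos* in 31.6% of them. No cell type name is given to these 38 cells.

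Reissner's membrane is the thin epithelium between the fluid spaces above the organ of Corti, and RM-like cells were the class of *Vmo1*. It stood at 11580 CPM at P14 (40 cells) and at 8423 and 6190 CPM at P28 (429 and 421 cells). These cells held 98.2% of the library's *Vmo1* UMIs at P14 and 92.1% and 86.4% at P28, and 90%, 96.0% and 91.2% of them had a UMI. In macrophage-like cells, which were of like depth at P28, the shares were 2.63%, 8.44% and 7.77%. The log2 fold change over all other cells was 8.59 (SE 0.54, adjusted p = 9.87e-17 by edgeR, higher in 3 of 3). *Vmo1* was the 1 member higher in RM-like cells, with 5 lower, where 15.7% of all genes were called higher and 22.6% lower.

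At P28 the mean of *Vmo1* in RM-like cells, 7306 ± 1579 CPM (SD, n = 2), was 43.7 times that of the next class, the macrophage-like cells with 250 and 84.7 CPM. Single cells held 34.3% and 39.3% of the macrophage-like UMIs. Within the RM-like class the gene was not even: a cluster of 237 cells led by *Bpifb3* and *Enpep* had 3722 and 1665 CPM, while the larger one, of 613 cells led by *Crhbp* and *Rnase1*, had 10220 and 8345 CPM. Detection in the *Bpifb3* cluster was 87.9% and 71.1%, against 99.0% and 99.3% in the larger one, at like depth (medians of 2495 and 2143 against 2221 and 1889 UMIs).

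Of the classes taken whole, *Ucma* was highest in the Tdrd12+Clic6 cluster (190 cells at P14, 473 and 447 at P28). This cluster had 4 of the 6 sulcus and Hensen's cell markers at P14, among them the gap junction genes *Gjb2* and *Gjb6* and the water channel gene *Aqp4*, and 5 at P28, but *Car3*, a fibrocyte marker, and none of these was among its 10 leading genes, so it was not named. *Ucma* stood there at 2881 CPM at P14 and at 709 and 618 CPM at P28. Higher levels were found in a cluster of the ISC/HeC/OSC-like class at P14 (below) and in the *Gm525* cells at P28 (above). In the Tdrd12+Clic6 cluster *Ucma* was found in 86.8%, 63.6% and 60.4% of the cells, against 1.32%, 4.22% and 3.89% of macrophage-like cells. The log2 fold change was 4.84 (SE 0.26, adjusted p = 0.000114 by edgeR, higher in 3 of 3), and without either P28 library the adjusted p was 0.0762 or 0.0624. It was the 1 member higher in this cluster, with 5 lower, beside 19.7% and 23.5% of all genes.

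In the named ISC/HeC/OSC-like class *Ucma* stood at 752 CPM at P14 and at 62.6 and 179 CPM at P28. The difference from all other cells did not pass (log2 fold change 0.50, SE 0.34, adjusted p = 0.288), and of the other 6 genes all were lower, where 15.8% of all genes were called higher and 20.7% lower. The sign was not steady: the value was -0.07 without P28 replicate 2, -0.55 with at most 3000 genes per cell and -1.53 with up to 30% mitochondrial UMIs. With the unnamed clusters left out of the other cells it passed (3.5, adjusted p = 0.00358), since the Tdrd12+Clic6 cluster was then not among them. At P14 the level came mainly from 1 of the 2 clusters of this class, with 3046 CPM in 147 shallow cells (median 905 UMIs) and 198 CPM in 144 cells (median 2531 UMIs). The shallow cluster had *Clic6* among its 10 leading genes, as the Tdrd12+Clic6 cluster did. At P28 the cluster of 129 cells seen in both libraries (31 and 98) had 231 and 827 CPM. *Rubie* and *Frzb* were among the 10 leading genes of both this cluster and the Tdrd12+Clic6 cluster. At P28 *Ucma* was also higher in the Acan cluster (218 and 274 CPM), and in fibrocyte-like cells with the limit given above.

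*Rarres1* and *Emilin2* each had another class with lower levels. *Rarres1* stood in IHC-like cells at 135 CPM at P14 and at 52.6 and 35.3 CPM at P28, in place 2 of the 19 classes at P28. It was found in 23.3%, 31.9% and 22.4% of these cells, which were deep at P28 (medians of 9310 and 8008 UMIs). After each cell was thinned to 1000 UMIs it was found in 12.9%, 6.06% and 4.17%, against 0%, 0% and 0.376% of macrophage-like cells. *Emilin2* stood in fibroblast-like cells at 695 CPM at P14 and at 497 and 534 CPM at P28, with a UMI in 65.1%, 61.0% and 57.0% of the cells. The test against all other cells did not pass for *Rarres1* in IHC-like cells (log2 fold change -0.19, adjusted p = 0.589 by edgeR) or *Emilin2* in fibroblast-like cells (-0.17, adjusted p = 0.662), where *Emilin2* was 0.02 without P28 replicate 2.

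TBC-like cells weigh heavily in "all other cells" for these genes, since they held at least 82.7% of the UMIs of *Otor*, *Rarres1* and *Emilin2* in each library. With TBC-like cells left out of the other cells, a comparison added after the data were seen, *Rarres1* was higher in IHC-like cells (log2 fold change 3.77, SE 0.34, adjusted p = 8.96e-05 by edgeR) and *Emilin2* in fibroblast-like cells (3.10, SE 0.32, adjusted p = 0.000605). *Otor* turned from lower to higher in 3 classes: in fibrocyte-like cells from -2.13 (SE 0.14, adjusted p = 1.32e-06) to 0.71 (SE 0.16, adjusted p = 0.00502), in the Abcc9 cluster from -1.35 to 1.43 and in IPhC/IB-like cells from -2.34 to 0.48. The call in IPhC/IB-like cells was near the threshold (adjusted p = 0.0426 by edgeR). *Otor* was found in 9.09% and 9.58% of these cells, against 5.91% and 15.2% of macrophage-like cells. In each P28 library 1 cell held 24.3% and 16.8% of the *Otor* UMIs of the IPhC/IB-like class. The level of *Otor* in fibrocyte-like cells was 132.5 and 102.6 CPM, far under that of TBC-like cells and above that of SGN-like cells (16.6 and 18.5 CPM). Red blood cell-like cells, where no member passed before, were then higher for *Otor* (2.44), *Rarres1* (3.25) and *Emilin2* (2.26). These sums rested on few cells: at P14, 1 cell held 37.3% of the *Otor*, 42.9% of the 21 *Rarres1* and 49.8% of the *Emilin2* UMIs, and *Rarres1* had 5 and 4 UMIs at P28. Over the same 126 pairs of gene and class, 19 were called higher instead of 11, and 62 lower instead of 94. The shares of all genes called in this comparison are not given here.

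**Figure D3:**
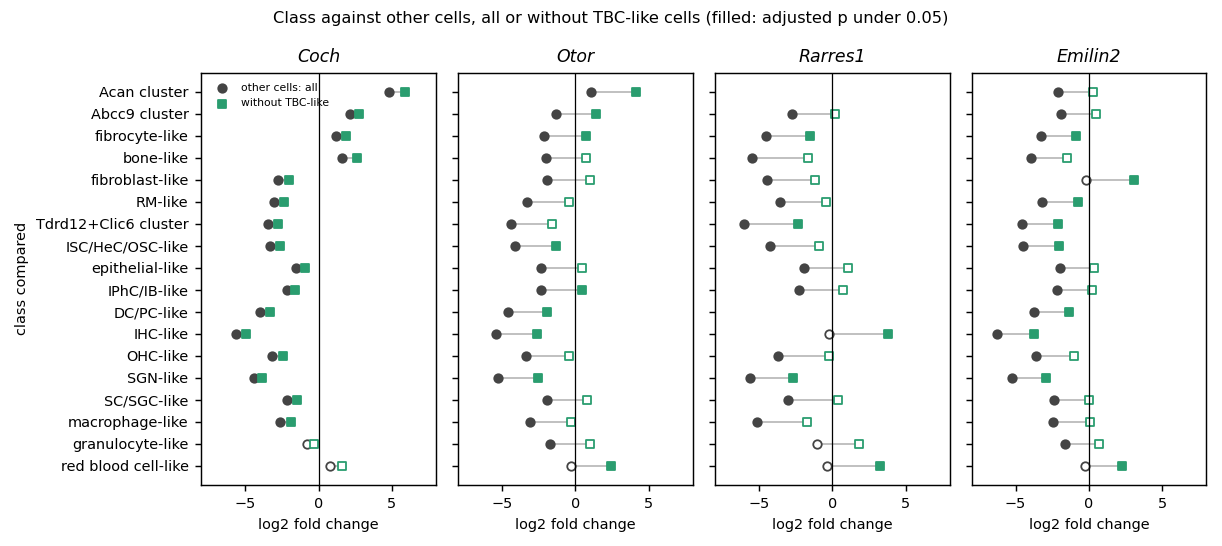
Log2 fold change of *Coch*, *Otor*, *Rarres1* and *Emilin2* in each class (vertical) against all other cells (dark circles) and against other cells without TBC-like cells (green squares), filled where the adjusted p is under 0.05; *Rarres1* is not drawn in the Acan cluster and the DC/PC-like class, where it had no UMI. *Emilin2* in fibroblast-like cells moves from -0.17 to 3.10 and *Rarres1* in IHC-like cells from -0.19 to 3.77.

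In TBC-like cells *Coch*, *Otor*, *Rarres1* and *Emilin2* had higher levels at P14 than at P28, as did *Vmo1* in RM-like cells and *Ucma* in the Tdrd12+Clic6 cluster. *Otos* and *Coch* were highest at P28 in the fibrocyte-like class and the Acan cluster, and no P14 cluster was named or matched as either. Such cells may still be present at P14, where 58 bone-like cells had 7 of 9 fibrocyte markers more than 2-fold above all kept cells. In P28 bone-like cells this held for 2 of 9, so the bone-like classes of the ages differed in markers. *Acan*, *Dmp1* and *Spp1* were among the 10 leading genes of both the P14 bone-like cluster and the Acan cluster. In bone-like cells *Coch* at P14 was 0.683 times its level in P28 replicate 1 and 5.76 times that in replicate 2. *Coch* stood at 2341 CPM in the P14 pericyte-like cluster and at 6545 and 6386 CPM in the P28 Abcc9 cluster. They shared leading genes but were not treated as 1 class. With 1 library at P14 no test between the ages could be made, and the intervals given here cover counting error only. In TBC-like cells *Rarres1* was 23.3 times as high at P14 as in either P28 library (intervals of 21.3 to 25.5 and 21.4 to 25.4). At P14, 1 of the 67 TBC-like cells held 12.2% of the *Rarres1* UMIs of the class. The median TBC-like cell had 2 UMIs of *Rarres1* at P14 and 0 in both P28 libraries. *Emilin2* was 4.03 and 3.83 times as high, *Coch* 3.25 and 2.76 times and *Otor* 2.11 and 2.27 times. At P14, 1 cell held 10.3% of the *Emilin2*, 16.3% of the *Coch* and 11.1% of the *Otor* UMIs of the class. In the median cell *Coch* made up 0.342% of UMIs at P14 and 0.191% and 0.265% at P28. For *Emilin2* these shares were 1.46%, 0.296% and 0.312%, and for *Otor* 0.388%, 0.208% and 0.195%. Over the 1870 genes with at least 100 CPM in TBC-like cells at either age, the median log2 ratio of P14 to P28 was 0.03, and it was 4.48 for *Rarres1*, 1.97 for *Emilin2*, 1.57 for *Coch* and 1.13 for *Otor*. Only 4 of these genes were as high as *Rarres1* or higher, itself included, and 44, 63 and 123 as high as the other 3.

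*Ucma* in the Tdrd12+Clic6 cluster was 4.07 and 4.66 times as high at P14, a log2 ratio of 2.10 beside a median of 0.25 over 1618 genes. *Vmo1* in RM-like cells was 1.38 and 1.87 times as high, a log2 ratio of 0.66 beside a median of 0.18 over 2265 genes, and 493 of these genes were as high or higher. Over all kept cells the order of the ages was the opposite for *Coch*, *Otor*, *Emilin2* and *Vmo1*, and TBC-like cells were 67 of 1662 cells at P14 and 938 of 5651 and 1232 of 7065 at P28. *Coch* stood at 646 CPM in the P14 library and at 1403 and 1866 CPM in the P28 libraries. *Rarres1* (165 CPM, then 40.5 and 45.8) and *Ucma* (835 CPM, then 81.2 and 75.6) were higher at P14 in all cells too. In classes where *Coch* is low the level was higher at P28, as in macrophage-like cells with 25.7, 180 and 690 CPM in the 3 libraries, and the part of RNA from other cells in this was not tested.

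**Figure D4:**
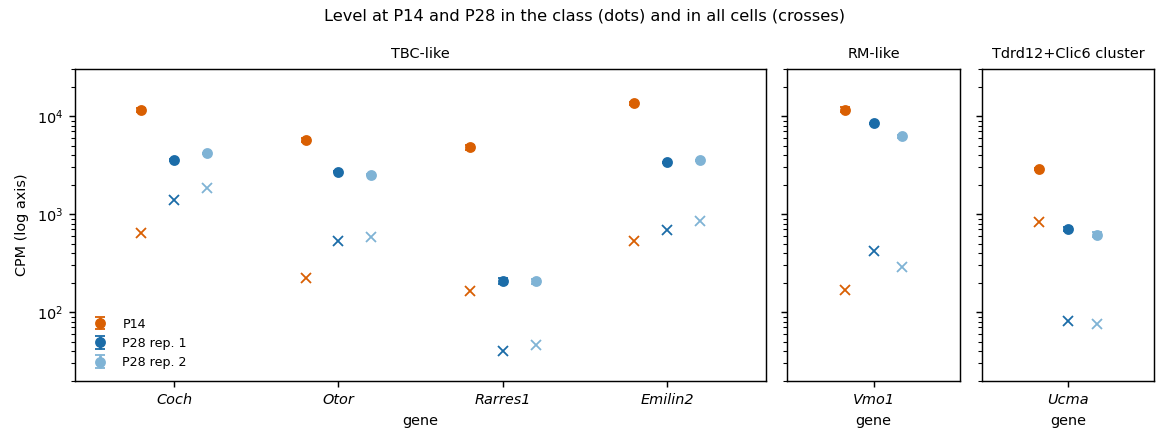
Level (CPM, log axis) at P14 and in P28 replicates 1 and 2 of 4 genes in TBC-like cells, *Vmo1* in RM-like cells and *Ucma* in the Tdrd12+Clic6 cluster (dots, with 95% Poisson intervals mostly within the dot) and in all kept cells (crosses). *Rarres1* falls from 4807 CPM at P14 to 206 CPM in both P28 libraries of TBC-like cells, while the crosses of *Coch*, *Otor*, *Emilin2* and *Vmo1* are lower at P14.

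Genes with the most similar pattern were sought by Pearson's correlation of log2(CPM + 10) over 32 sums at P28 (16 named classes in 2 libraries, which share depth and pools), among 7813 genes with at least 50 CPM in both libraries of a class. *Emilin2* was most like *Emcn* (r = 0.978), *Nnat* (0.932) and *Epha3* (0.916), and *Otor* most like *Emcn* (0.870), *Notum* (0.861) and *Emilin2* itself (0.857). *Vmo1* was most like *Rnase1* (0.968), *Cndp2* (0.95) and *Dkk2* (0.927), all leading genes of RM-like cells. *Otos* was most like *Ptgds* (0.938), the prostaglandin D synthase gene, *Gm525* (0.905) and *Apod* (0.766), which were high in the same fibrocyte-like class. The Acan, Abcc9 and Tdrd12+Clic6 clusters had no name and did not enter, so the highest class of *Coch* and of *Ucma* is missing from their patterns. *Coch* was most like *Cald1* (0.864), *Slco1c1* (0.825) and *Tnfrsf11b* (0.811), and *Rarres1* most like *Kcnk3* (0.822), *Spon2* (0.751) and *Ust* (0.716). *Ucma* had weaker likeness (*Hspa1b* 0.717, *Gsta4* 0.683, *Galk1* 0.662). Among the 7 themselves, r was 0.86 for *Otor* and *Emilin2*, 0.70 for *Coch* and *Otor* and 0.66 for *Otor* and *Rarres1*, and at most 0.13 for *Vmo1* and any other.

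A list of 16 related genes held families of the 7 and genes that act on them or on the same matrix. Of 225 pairs of gene and class tested, 33 were higher in the class and 91 lower, read beside the same shares of all genes as above. *Mia*, the namesake of the otoraplin family, was higher in ISC/HeC/OSC-like cells (log2 fold change 2.34, SE 0.29) and in the Tdrd12+Clic6 cluster (2.51, SE 0.22) and lower in TBC-like cells (-4.27, SE 0.56), where *Otor* was high. *Emilin1* was higher in TBC-like cells (1.81, SE 0.17), as *Emilin2* was, but also in fibroblast-like and bone-like cells and the Acan and Abcc9 clusters. *Emilin3* was higher in the Tdrd12+Clic6 cluster (4.90, SE 0.30) at a mean level of 15.3 CPM at P28. *Vit*, which like *Coch* codes for a protein with LCCL and von Willebrand A domains, was higher in the Acan cluster (3.4, SE 0.86, adjusted p = 0.0141 by edgeR) at a mean level of 13.4 CPM. That level rests on few UMIs, in sums of 252199 and 306339 UMIs of all genes. The mean of *Vit* at P28 was higher in SC/SGC-like cells, at 18.1 CPM.

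Of the genes for other Gla proteins, *Bglap* and *Bglap2* (osteocalcin) were higher in bone-like cells, and matrix Gla protein, *Mgp*, was higher in bone-like cells (5.41, SE 0.50), the Acan cluster (4.75, SE 0.32), the Abcc9 cluster and TBC-like cells. *Ucma* was in common with *Mgp* in the Acan cluster only. *Rarres2* (chemerin), another gene known to respond to retinoids, was higher in TBC-like cells (2.17, SE 0.19) and in fibroblast-like cells. *Lxn*, the gene of latexin, was higher in ISC/HeC/OSC-like cells (1.40, SE 0.25) and in the Tdrd12+Clic6 cluster. *Adamts4*, which codes for an aggrecanase that cuts cochlin, had a mean of at most 4.80 CPM in any of the 19 classes at P28.

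Barcodes outside the limits, most of them over the mitochondrial limit (498 of 851 at P14, 5986 of 6297 and 10778 of 11131 at P28), also held RNA of the 7 genes. *Otos* stood at 753 CPM in them at P14 and at 2751 and 3668 CPM at P28, 2.00, 3.30 and 2.91 times its level in the kept cells. *Coch* in them was 0.225 times its level in the kept cells at P14 and 1.30 and 1.15 times at P28. The other 5 genes were lower outside the limits at P14, by ratios of 0.0874 to 0.248. At P28 *Vmo1* and *Ucma* were near their levels in kept cells (0.954 to 1.21 times), and *Otor*, *Rarres1* and *Emilin2* were lower (0.327 to 0.969 times). *Otos* was thus the 1 gene of the 7 with a higher level outside the limits than inside in all 3 libraries.

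**Figure D5:**
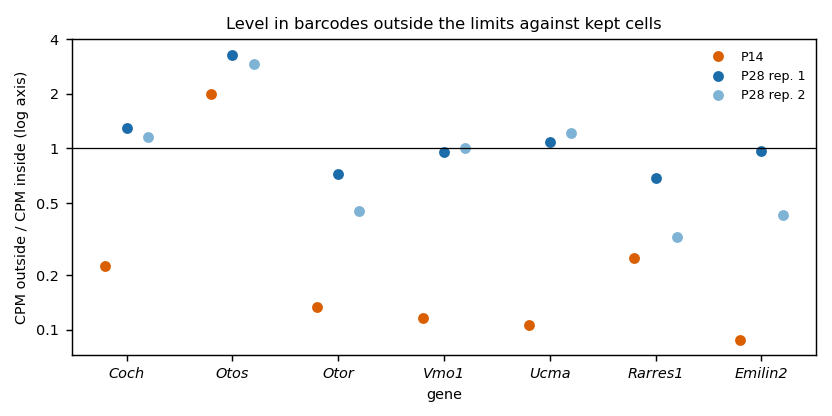
Ratio (log axis) of the level of each gene in barcodes outside the limits on genes and mitochondrial UMIs to its level in kept cells, for the P14 library and the P28 replicates; the line marks equal levels. All 3 points of *Otos* lie above the line, from 2.00 to 3.30, and those of *Otor*, *Rarres1* and *Emilin2* lie below it.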

How the data were processed

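Cells of cochleae from mice at P14 (1 library) and P28 (2 libraries) were measured with 10x Chromium 3′ v3.1 chemistry. The deposited values are raw UMI counts per gene and barcode, which the authors made with Cell Ranger (6.0.1 in the processing notes, 5.0.1 in the file headers) on mm10. All barcodes in the files were used, and the filters on genes (200 to 6000) and mitochondrial UMIs (15%) were applied here. Cells were clustered per age in Seurat 5.3.0 (R 4.3.3) with 2000 variable genes, the 7 genes excluded, 30 principal components and resolution 1. A cluster was named where at least 3 and at least 50% of a marker list were raised (log2 ratio of 1 over the median cluster, UMI in 5% of cells) and no other list had more genes among its 10 leading genes. Unnamed clusters were matched across ages by at least 5 shared leading genes.

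UMIs were summed per class and library (at least 10 cells), and a class was tested against all other cells with edgeR 4.0.16 (TMM, filterByExpr, quasi-likelihood test), with a library term where 3 libraries entered. The scripts were tested on simulated data. Both sums of a library come from 1 suspension, which pairs them, and their deviations had correlations from 0 to 0.59 in 36 sets of class and library (33 over 0.1). With 2 libraries no such term was used. Scrublet (scanpy 1.11.5) called 4, 0 and 1 doublets, so its calls were not used and doublets were left in. Levels have exact Poisson and shares exact binomial (Clopper-Pearson) 95% intervals, which cover counting error only. The animals were pooled, so p-values from the 2 P28 libraries measure the spread between pools. Where all 3 libraries entered, the spread also holds differences between P14 and P28 in the ratio of a class to the other cells. The members and lists were chosen with earlier results of these data known. Named genes were the 7 members, 16 relatives and, for each member, the 3 genes with the most similar profile. Genes that lead a cluster are named as its description. Alternatives covered DESeq2 1.42.0, filters, resolution, the clustering genes, doublet scores, the library term, left-out libraries and the comparison cells, and 1 of them, other cells without TBC-like cells, was chosen after seeing the data.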

Additional observations from a re-analysis of the deposited data

Results flagged for a closer look

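The ratio of a class to all other cells went one way at P14 and the other way in both P28 libraries for 5 pairs of gene and class. In 3 of them the 95% counting interval of each library's ratio lay on its side of equal levels. The difference between the ages was not tested, since P14 has 1 library. For *Emilin2* in fibroblast-like cells the log2 ratio was 0.43 at P14 and -0.52 and -0.74 at P28, while the level itself was higher at P14. For *Emilin2* in red blood cell-like cells it was 0.35 at P14 and -2.38 and -2.75 at P28, and 1 cell held 49.8% of the P14 UMIs. For *Otos* in bone-like cells it was 5.98 at P14 and -2.07 and -0.84 at P28, with the P14 level mostly in the 38 cells without bone markers. In the other 2 at least 1 library's interval included equal levels. These were *Otor* in bone-like cells (0.17 at P14, -3.23 and -3.08 at P28) and *Otos* in SC/SGC-like cells (-2.11 at P14, 0.08 and 1.78 at P28).

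Barcodes outside the limits on genes and mitochondrial UMIs, which entered no comparison of classes, had higher levels than the kept cells for *Otos* in all 3 libraries (753 CPM at P14, 2751 and 3668 CPM at P28), for *Coch* at P28 (1829 and 2149 CPM) and for *Ucma* at P28 (88.4 and 91.6 CPM).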

How the results depend on the processing

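The calls of *Coch* in the Acan cluster (log2 fold change from 4.64 to 5.85) and the Abcc9 cluster, of *Otor*, *Rarres1* and *Emilin2* in TBC-like cells, of *Vmo1* in RM-like cells (7.57 to 9.01) and of *Otos*, *Otor* and *Ucma* in the Acan cluster kept direction and side of the threshold in every alternative with a test. In fibrocyte-like cells, with the members allowed as clustering genes, the values were 0.32 (*Coch*), 2.74 (*Otos*), -1.68 (*Otor*, adjusted p = 0.097 by edgeR) and -0.65 (*Ucma*). *Coch* there was 0.65 without P28 replicate 1, from 1 library and with no test, and 1.31 without P28 replicate 2. *Otor* there was -0.90 with at most 3000 genes and 15000 UMIs per cell (adjusted p = 0.0718) and 0.71 with TBC-like cells left out of the other cells. *Ucma* in ISC/HeC/OSC-like cells was -1.53 with up to 30% mitochondrial UMIs, -0.55 with at most 3000 genes, 3.5 without unnamed clusters and -0.07 without P28 replicate 2 (-0.07 to 0.98 when 1 library was left out). *Emilin2* in fibroblast-like cells was 0.08 with 30% mitochondrial UMIs, 0 with the members as clustering genes, 3.10 without TBC-like cells and -0.46 to 0.02 with 1 library left out. *Rarres1* in IHC-like cells was 3.77 without TBC-like cells. *Otos* in bone-like cells was -0.58 with at most 3000 genes, -0.51 at resolution 2, -0.39 without the 10% highest doublet scores and -1.08 to 3.06 with 1 library left out. The cause of these changes was not tested, other than by construction where cells left the comparison.

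Of the pairs of member and class, 19 were higher and 62 lower without TBC-like cells among the others. Leaving out 1 library gave 4 to 9 pairs higher and 6 to 61 lower, with 4 and 6 of 84 without P28 replicate 1 and 27 lower without replicate 2 (7 and 61 before). *Rarres1* was higher in 2 and lower in 3 of 18 classes without TBC-like cells, and lower in 2 to 8 with 1 library left out. For the relatives the left-out libraries gave 1 to 21 pairs higher and 5 to 43 lower. Without the replicate block, the library term in fits of 3 libraries, 40 pairs of members (61 with it) and 29 of relatives (62 with it) were lower. With the replicate block in fits of 2 libraries, 9 pairs were higher and 38 lower (8 and 36 without it, of 49). The shares of all genes called under these alternatives are not given, so the changes are not read as particular to the members or the relatives. Depth limits *Rarres1* and *Vmo1* outside their main class most, where many sums held few UMIs.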
